A study of Homo sapiens with 6 samples.

Results

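The genes of serine palmitoyltransferase and of the steps that turn its product into ceramide and glucosylceramide were examined in the human colon carcinoma line RKO, an established line of poorly differentiated cells. The set held 10 of the 28278 gene rows, chosen by symbol. It comprised the small subunit genes SPTSSB and SPTSSA, the large subunit genes SPTLC1 and SPTLC2, the regulator gene ORMDL1, the ceramide synthase genes CERS2, CERS5 and CERS6, the desaturase gene DEGS1 and the glucosylceramide synthase gene UGCG. The set was drawn up around SPTSSB with its log2 fold change between these same groups already known, so the values of the 10 genes in this comparison are given as a description and without p-values. All 10 passed the filter on low counts.

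Total RNA was sequenced from 3 libraries of cells stably carrying a short hairpin against TRIM21 (shTRIM21, TRIM21 knockdown) and 3 of cells carrying a scrambled hairpin (shControl, labelled WT). All 6 therefore come from RKO cells infected with a hairpin lentivirus and held in puromycin at 5 µg/ml, added 36 h after infection, for weeks. The labels give neither the number of hairpins nor separate infections, so each arm may be 1 infected pool, and p-values measure the spread between these libraries.

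Sphingolipid synthesis begins in the endoplasmic reticulum, where serine palmitoyltransferase joins serine to a fatty acyl-CoA. The enzyme is a dimer of SPTLC1 with SPTLC2 or SPTLC3, needs a small subunit for full activity, and is held in check by the ORMDL proteins when ceramide is plentiful. The product is reduced, joined to a fatty acid by a ceramide synthase and desaturated to ceramide, from which sphingomyelin and glycosphingolipids are made. The choice of small subunit shifts which acyl-CoA is taken, and in human cells SPTSSB is linked to bases longer than those made with SPTSSA.

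Because the small subunit genes SPTSSB and SPTSSA differed most between the groups, in opposite directions, the DNA before their starts is shown. Each line gives the 250 bases before the annotated start, 5′ to 3′ on the minus strand, from the RefSeq promoter table (GRCh38.p14), at chr3:161371518-161371767 for SPTSSB and chr14:34462241-34462490 for SPTSSA. Capitals mark the GC box word GGGCGG and the CCAAT word, searched on both strands with overlapping copies counted.
SPTSSB: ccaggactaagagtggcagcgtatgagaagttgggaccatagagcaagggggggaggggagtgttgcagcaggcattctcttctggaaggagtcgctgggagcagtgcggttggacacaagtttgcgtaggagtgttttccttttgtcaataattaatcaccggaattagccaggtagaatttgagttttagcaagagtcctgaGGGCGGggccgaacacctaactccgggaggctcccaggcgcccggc
SPTSSA: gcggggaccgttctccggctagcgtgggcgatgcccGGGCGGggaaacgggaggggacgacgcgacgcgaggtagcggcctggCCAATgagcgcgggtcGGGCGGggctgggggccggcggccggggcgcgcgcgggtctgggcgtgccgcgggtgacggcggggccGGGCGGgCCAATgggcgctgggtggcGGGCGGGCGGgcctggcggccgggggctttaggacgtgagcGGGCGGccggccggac

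The SPTSSB window held 1 GC box and 0 CCAAT words, with a GC content of 54.8% and 10 CpG dinucleotides. The SPTSSA window held 6 GC boxes and 2 CCAAT words, with a GC content of 82.0% and 43 CpG dinucleotides. Over all 35116 windows of this length in the table the median GC content was 58.0% and the median CpG count 11, so SPTSSB lay near the median and SPTSSA well above it. The GC box was present in 42.6% and the CCAAT word in 32.0% of all windows. Windows were found for 9 of the 10 genes, CERS2 having none in the table. In at least 1 window, all 9 held a GC box and 4 a CCAAT word (SPTSSA, SPTLC2, ORMDL1 and CERS6). ORMDL1 and DEGS1 each had a further window, and each of these genes had a window with 0 GC boxes. The shares of all windows count single windows, so they are not like for like with these counts by gene. The TATA word TATAAA was in 10.7% of all windows, the E-box word CACGTG in 6.34%, the cyclic AMP response word TGACGTCA in 1.65% and the TEAD word GGAATG in 11.9%, and 0 of the 9 genes held any of them.

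The libraries held 33499827 to 44466137 counts. Rows of ribosomal RNA took 16.99% to 23.5% of them in shTRIM21 and 14.7% to 36.9% in shControl, with shControl replicates 1 and 3 at 31.0% and 36.9%; without these rows every library held 27808151 to 29100459 counts. With the ribosomal rows removed, 3244 genes, 5 of the 10 and 19 of the other listed genes were called, and the log2 fold changes were 1.92 for SPTSSB, -0.49 for SPTSSA and -0.55 for TRIM21. Values without shControl replicates 1 and 3 are given beside the calls they end. TRIM21 itself averaged 7.58 ± 0.574 CPM in shTRIM21 and 11.03 ± 1.40 CPM in shControl (SD, n = 3 each; CPM are counts scaled to library sizes with TMM factors); it fell by 31.3% (edgeR adjusted p = 0.00424) and was not called with library sizes alone (log2 fold change -0.34, edgeR adjusted p = 0.197, of a range from 0.000399 to 0.197 over its alternatives). The epithelial and intestinal markers EPCAM, KRT8, KRT18, CDH1, CDX2 and VIL1 were all present, at means from 10.8 to 2501 CPM in shTRIM21 and 11.3 to 3384 CPM in shControl. Of these 6, KRT8 (log2 fold change -0.44) and KRT18 (-0.46) were called lower and CDH1 (0.57) higher in shTRIM21, with adjusted p-values of 0.00139, 0.000179 and 3.31e-05 by edgeR; the part of such marker differences in the other results was not tested. Of the markers of other cell types, CD3E and DCN were listed at 0 in all libraries, PTPRC, PECAM1 and VWF had means below 0.5 CPM in both groups, and CD68 and COL1A1 had 6.08 and 10.2 CPM in shTRIM21 and 7.52 and 7.88 CPM in shControl. In bulk RNA, fewer cells using a gene and less of its RNA per cell cannot be told apart.

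Of the 10 genes, 5 were called at an adjusted p under 0.05 by edgeR's quasi-likelihood test over all 15131 tested genes: SPTSSB and SPTLC2 higher, and SPTSSA, CERS2 and UGCG lower in shTRIM21. Over all tested genes 20.8% were called, with 9.77% of tested genes called upward and 11.0% downward. In CPM, 8 of the 10 genes had groups without overlap, against 37.7% of all tested genes. The median log2 fold change was -0.087 for the 10 genes and 0.0054 for all tested genes. With upper-quartile factors 2 of the 10 were called higher and 2 lower, and with library sizes alone only SPTSSB was called. Over all genes the calls were 1479 higher and 1667 lower with TMM, 1899 and 1161 with upper-quartile factors, and 1831 and 138 with library sizes alone, where the median of all tested genes shifted to 0.22. Without shControl replicates 1 and 3, an alternative chosen after the data were seen, 1 of the 10 was called.

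**Figure D1:**
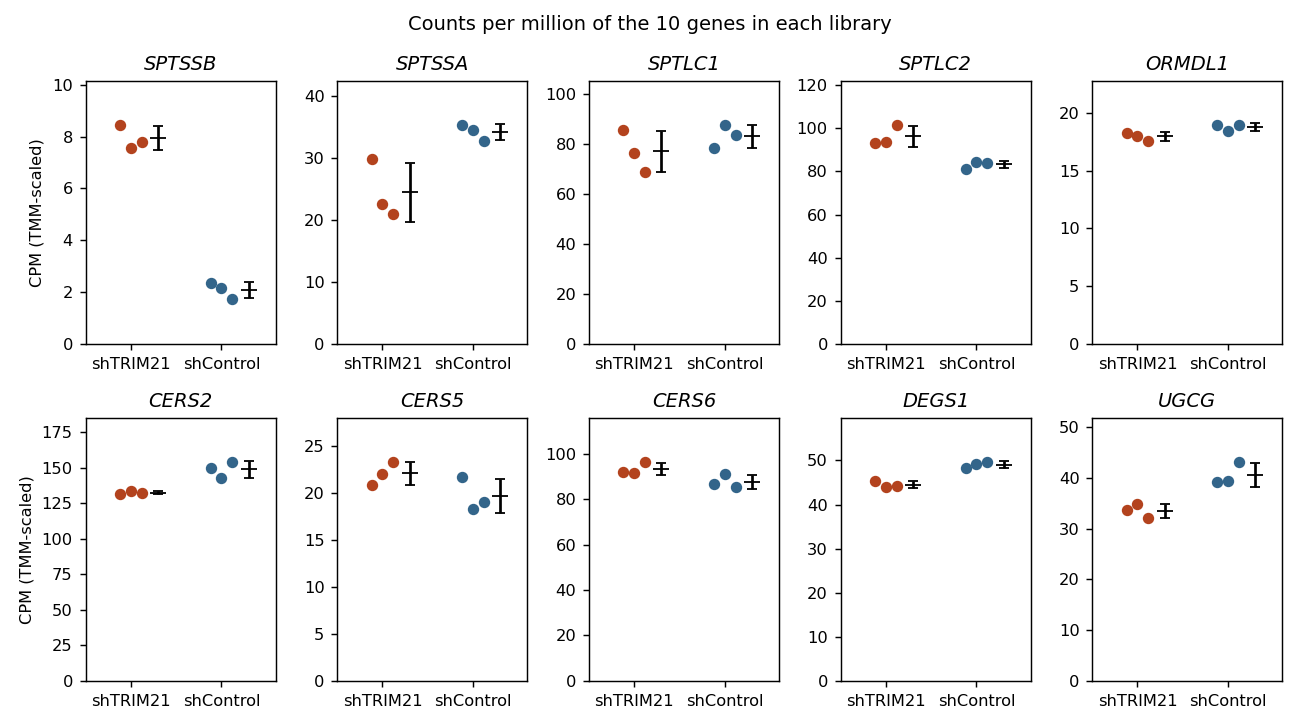
CPM (TMM-scaled library sizes, linear axes from 0) of each of the 10 genes in the 3 shTRIM21 libraries (left, red) and the 3 shControl libraries (right, blue); each point is 1 library and the bar is the mean ± SD. SPTSSB stands at 7.56 to 8.45 CPM in shTRIM21 and 1.74 to 2.36 CPM in shControl, while the other 9 genes differ by less than 1.5-fold between the group means.

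SPTSSB encodes one of the paired small subunits that activate the enzyme. Its counts were 317, 296 and 295 in shTRIM21 and 89, 79 and 63 in shControl, which are 8.45, 7.56 and 7.79 CPM in shTRIM21 against 2.36, 2.15 and 1.74 CPM in shControl. Every shTRIM21 library lay more than 3-fold above every shControl library. SPTSSB averaged 7.93 ± 0.462 CPM in shTRIM21 and 2.08 ± 0.315 CPM in shControl (SD, n = 3 each), a log2 fold change of 1.93 (SE 0.15). Over the 14 alternatives this value ran from 1.81 to 2.14. SPTSSB lies on chromosome 3 at 161344798 to 161371517 (GRCh38.p14, minus strand), where 0 other RefSeq genes overlap it.

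SPTSSA encodes the other small subunit, which favours palmitoyl-CoA. It stood at 29.9, 22.6 and 21.0 CPM in shTRIM21 and 35.3, 34.5 and 32.7 CPM in shControl. The groups did not overlap, and shTRIM21 replicate 1 lay nearer to the controls than the other two shTRIM21 libraries did. The means were 24.5 ± 4.73 CPM in shTRIM21 and 34.2 ± 1.35 CPM in shControl (SD, n = 3 each), with a log2 fold change of -0.48 (SE 0.10). The call was absent both without shControl replicates 1 and 3 (-0.50) and when library sizes were used unscaled (-0.27). SPTSSA lies on chromosome 14 at 34432788 to 34462240 (minus strand), also with 0 overlapping genes.

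Set per kilobase of exon (the union of exons of all GENCODE 29 transcripts, 3745 bases for SPTSSB and 2777 for SPTSSA), the pair can be compared as levels. SPTSSB made up 17.3%, 19.9% and 21.6% of the summed small subunit level in shTRIM21 and 4.72%, 4.42% and 3.80% in shControl. The mean share was 19.6% ± 2.14 in shTRIM21 and 4.31% ± 0.470 in shControl (SD, n = 3 each). SPTSSA remained the more abundant of the pair in all 6 libraries. The sum of both was 13.0, 10.1 and 9.64 CPM per kb in shTRIM21 and 13.3, 12.99 and 12.2 CPM per kb in shControl, so the groups overlapped. These levels depend on the length used: by mean transcript length the share was 42.4% in shTRIM21 and 11.99% in shControl and the sum 15.2 against 13.98 CPM per kb, a turn in the direction of the sum, while by the longest transcript the share was 22.7% against 5.16%.

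**Figure D2:**
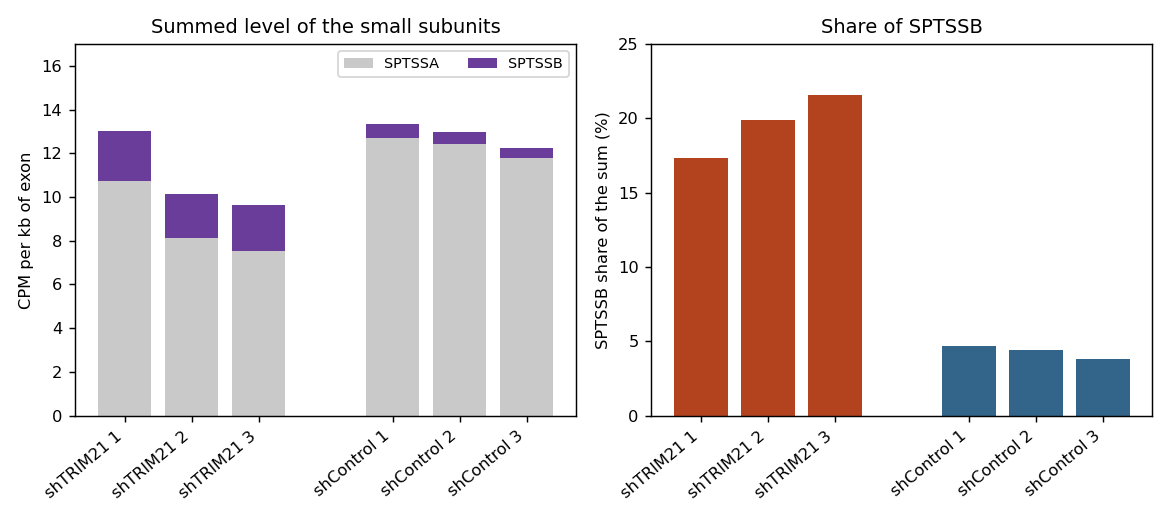
Left, the level of SPTSSA (grey) and SPTSSB (purple) in CPM per kb of exon, stacked, for each library; right, SPTSSB as a percentage of that sum. The share is 17.3% to 21.6% in the 3 shTRIM21 libraries and 3.80% to 4.72% in the 3 shControl libraries, while the summed level overlaps between the groups.

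Among the large subunits, SPTLC2, which carries the catalytic site, had 93.3, 93.7 and 101.6 CPM in shTRIM21 and 81.2, 84.6 and 83.9 CPM in shControl. SPTLC2 lies on chromosome 14 at 77505997 to 77616637 (minus strand). All shTRIM21 libraries were above all shControl libraries. The means were 96.2 ± 4.66 CPM in shTRIM21 and 83.2 ± 1.83 CPM in shControl (SD, n = 3 each), a log2 fold change of 0.21 (SE 0.055). The call of SPTLC2 was lost without shTRIM21 replicate 2 (0.22), shTRIM21 replicate 3 (0.17), shControl replicate 1 (0.19) or shControl replicates 1 and 3 (0.18), and with library sizes alone (0.42). SPTLC1, its partner in the dimer, had 85.7, 76.5 and 69.0 CPM in shTRIM21 and 78.5, 87.7 and 83.5 CPM in shControl. These ranges overlapped, and the log2 fold change of -0.11 (SE 0.073) was not called. Per kilobase, SPTLC2 made up 47.0% ± 3.77 of the summed level of the pair in shTRIM21 and 41.5% ± 0.853 in shControl (SD, n = 3 each), without overlap between the groups; by the longest transcript it was 31.4% against 26.8%. SPTLC3, the alternative to SPTLC2, had 0, 2 and 2 counts in shTRIM21 and 0 in every shControl library and was not tested.

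ORMDL1, a membrane protein that restrains the enzyme, had 18.3, 18.02 and 17.5 CPM in shTRIM21 and 18.9, 18.4 and 18.9 CPM in shControl. The libraries of each group lay within 1 CPM of each other, the groups just failed to overlap, and the log2 fold change of -0.063 (SE 0.077) was not called. Its paralogs ORMDL2 and ORMDL3 stood at log2 fold changes of 0.011 (SE 0.079) and -0.015 (SE 0.084), not called by edgeR (adjusted p of 0.938 and 0.923). Per kilobase, ORMDL1 made up 23.5% ± 1.13 of the 3 ORMDL transcripts in shTRIM21 and 24.2% ± 0.902 in shControl (SD, n = 3 each), with the libraries of the groups overlapping. KDSR, which reduces the product of serine palmitoyltransferase, averaged 39.8 ± 1.35 CPM in shTRIM21 and 44.6 ± 2.40 CPM in shControl (SD, n = 3 each) and was not called (log2 fold change -0.16, edgeR adjusted p = 0.0855).

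The ceramide synthases differ in the fatty acid they attach. CERS2, which uses very long acyl-CoAs, had 131.6, 134.0 and 132.1 CPM in shTRIM21 and 150.0, 142.8 and 154.4 CPM in shControl. CERS2 lies on chromosome 1 at 150965186 to 150974835. The shTRIM21 libraries lay close together and below all controls, with a log2 fold change of -0.17 (SE 0.051). This call was the least stable of the 5: it was lost when any 1 shTRIM21 replicate was left out (-0.17, -0.19 and -0.17 without replicates 1, 2 and 3), without shControl replicate 1 (-0.17) or 3 (-0.15) or both (-0.11), with the replicate number as a block (-0.17) and with upper-quartile factors (-0.13), and with library sizes alone the value turned to 0.047.

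CERS5 and CERS6, which both favour palmitoyl-CoA, were not called. CERS5 had 20.8, 22.01 and 23.3 CPM in shTRIM21 and 21.7, 18.3 and 19.0 CPM in shControl, with overlapping groups and a log2 fold change of 0.17 (SE 0.086). CERS6 had 92.2, 91.4 and 96.6 CPM in shTRIM21 and 86.7, 91.1 and 85.3 CPM in shControl, with groups that did not overlap and a log2 fold change of 0.091 (SE 0.054). Per kilobase, CERS2 took 58.4% ± 0.356 of the summed level of CERS1, CERS2, CERS4, CERS5 and CERS6 in shTRIM21 and 63.3% ± 1.63 in shControl (SD, n = 3 each), without overlap between the groups. CERS6 took 26.4% ± 0.772 in shTRIM21 and 23.9% ± 1.36 in shControl, and CERS5 6.68% ± 0.330 in shTRIM21 and 5.74% ± 0.412 in shControl. These shares rest on the length used: by mean transcript length CERS2 took 67.6% in shTRIM21 and 72.4% in shControl, CERS5 13.4% in shTRIM21 and 11.4% in shControl, and CERS6 8.78% in shTRIM21 and 7.87% in shControl, so that CERS5 stood above CERS6 and the groups overlapped for CERS6. CERS4 was not called at a log2 fold change of 0.22 (SE 0.11, edgeR adjusted p = 0.181) and passed the threshold without shControl replicate 1 (0.37, edgeR adjusted p = 0.0301, of a range from 0.0301 to 0.498 over its alternatives). CERS1 averaged 0.644 CPM in shTRIM21 and 0.595 CPM in shControl and was not called (log2 fold change 0.11, SE 0.35; adjusted p = 0.852 by edgeR). CERS3 had 2, 0 and 0 counts in shTRIM21 and 0 in every shControl library and was not tested. CERS6 overlaps 4 other RefSeq genes, among them CERS6-AS1, and ORMDL1 overlaps OSGEPL1-AS1. SPTLC1 overlaps 6, among them MTND4P15, while SPTLC2, CERS5 and UGCG overlap 1 each. For all of these genes reads may be shared.

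DEGS1, which desaturates dihydroceramide to ceramide, had 45.4, 44.04 and 44.1 CPM in shTRIM21 and 48.2, 49.1 and 49.7 CPM in shControl. The groups did not overlap, yet the log2 fold change of -0.14 (SE 0.057) was not called. DEGS1 lies on chromosome 1 at 224183240 to 224193441 (plus strand). DEGS2, a paralog that also hydroxylates, averaged 2.32 ± 0.0701 CPM in shTRIM21 and 1.46 ± 0.488 CPM in shControl (SD, n = 3 each). Its log2 fold change of 0.67 (SE 0.25, edgeR adjusted p = 0.0717) passed the threshold with library sizes alone (0.89), without the filter (0.67) and without shControl replicate 1 (0.97, edgeR adjusted p = 0.0188, of a range from 0.0188 to 0.217 over its alternatives). FA2H, which hydroxylates the fatty acid, rose in shTRIM21, at 5.59 ± 0.251 CPM in shTRIM21 and 3.83 ± 0.706 CPM in shControl (SD, n = 3 each; log2 fold change 0.55, SE 0.15; adjusted p = 0.0214 by edgeR). Of the 9 other genes listed for these steps 7 were tested, and FA2H was the one called. FA2H was not called when shTRIM21 replicate 2 (0.52) or 3 (0.53), shControl replicate 3 (0.41) or shControl replicates 1 and 3 (0.54) were left out.

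UGCG makes glucosylceramide, the first step to most glycosphingolipids. It had 33.6, 34.7 and 32.1 CPM in shTRIM21 and 39.2, 39.3 and 43.2 CPM in shControl. All shTRIM21 libraries were below all controls, with shControl replicate 3 the highest. UGCG lies on chromosome 9 at 111896814 to 111935369 (plus strand). The log2 fold change was -0.28 (SE 0.066), and UGCG was not called without shControl replicates 1 and 3 (-0.24) or when library sizes were used unscaled (-0.061).

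**Figure D3:**
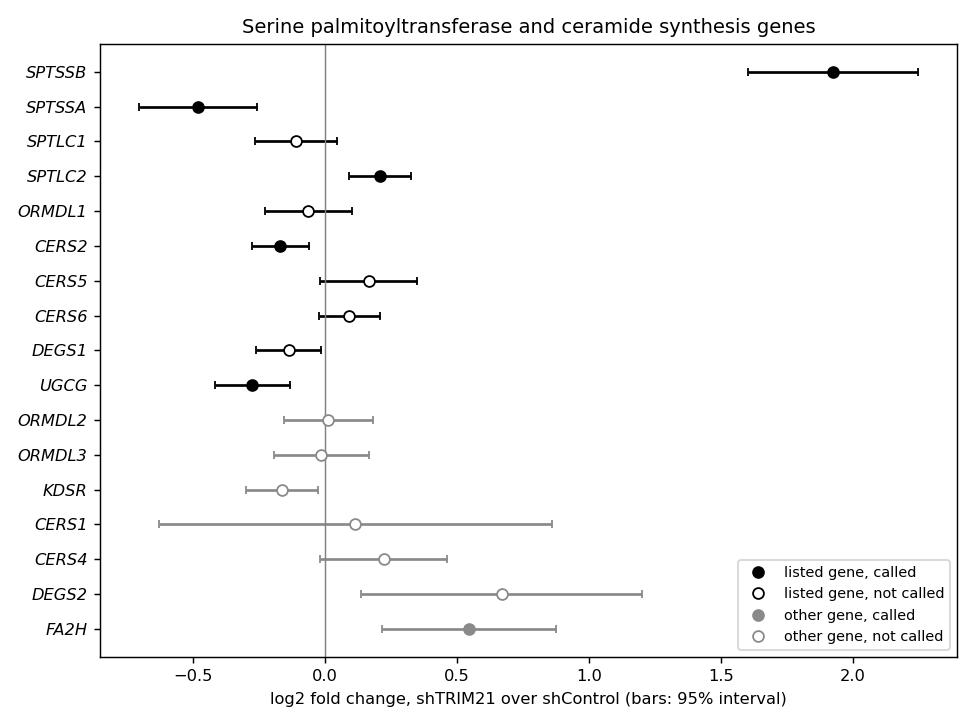
Log2 fold change of shTRIM21 over shControl with its 95% interval, for the 10 listed genes (black) and 7 other tested genes of serine palmitoyltransferase and ceramide synthesis (grey); filled points were called, open points were not. SPTSSB stands apart at 1.93, SPTSSA is lowest at -0.48, and the other 8 listed genes lie between -0.28 and 0.21.

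As levels per kilobase of exon, the order in shControl was CERS2, DEGS1, SPTLC1, SPTSSA, CERS6, SPTLC2, UGCG, ORMDL1, CERS5 and SPTSSB. CERS2 averaged 28.5 ± 0.272 CPM per kb in shTRIM21 and 32.1 ± 1.26 CPM per kb in shControl, and SPTSSB 2.12 ± 0.123 CPM per kb in shTRIM21 and 0.556 ± 0.0841 CPM per kb in shControl (SD, n = 3 each). SPTSSB was thus the lowest of the 10 in both groups. In shTRIM21 the order of the middle genes was CERS6, SPTLC1, SPTLC2 and SPTSSA. Among neighbours in the order, the libraries overlapped for CERS6 and SPTLC1, SPTLC1 and SPTLC2, and SPTLC2 and SPTSSA in shTRIM21, and for SPTLC1 and SPTSSA, SPTSSA and CERS6, and SPTLC2 and UGCG in shControl. By the longest transcript 8 of the 10 kept their rank in shControl, and by mean transcript length only CERS2 and SPTSSB did, so the order of the others rests on the length chosen.

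**Figure D4:**
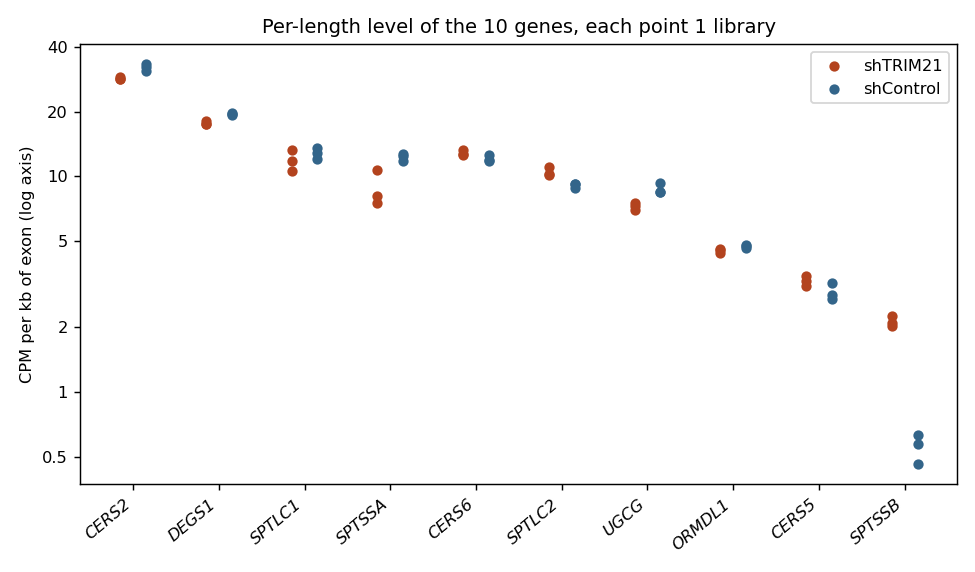
Level of the 10 genes in CPM per kb of exon on a log axis, ordered by the shControl mean, with 1 point for each shTRIM21 (left, red) and shControl (right, blue) library. Means run from 28.5 to 2.12 CPM per kb in shTRIM21 and from 32.1 to 0.556 CPM per kb in shControl, with SPTSSB lowest in both groups.

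Of the other 77 listed genes of sphingolipid metabolism and its substrates, 66 were tested; 11 rose and 7 fell in shTRIM21, 27.3% against 20.8% of all tested genes. With library sizes alone 10 rose and 1 fell. The median log2 fold change was 0.022, against 0.0054 for all tested genes. By list, 23.1% of tested genes were called in ceramide transfer and sphingomyelin, 36.4% in glycosphingolipid synthesis and 9.09% in glycosphingolipid breakdown. The share was 30.8% for ceramidases and sphingosine 1-phosphate, 45.5% for serine and palmitoyl-CoA supply and 14.3% for the rest of ceramide synthesis. Each list held 13 or fewer tested genes. Over all tested genes 9.77% were called upward and 11.0% downward. The lists came from textbook biochemistry, with earlier results of these data known. Of the 18 called, SGPP2 and PSAT1 differed by more than 1.5-fold. Without shControl replicates 1 and 3, 10 were called; among those lost were CERT1 (0.24), SMPDL3B (0.26), UGT8 (0.23), PLEKHA8 (0.20), B4GALT5 (0.17), NEU1 (-0.31), SGPL1 (-0.18) and PSPH (-0.22). Library sizes alone ended the calls of CERT1 (0.43), SGMS2 (-0.13), B4GALT5 (0.38) and NEU1 (-0.080), among others.

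In the list of ceramide transfer and sphingomyelin metabolism, 2 of 13 tested genes rose and 1 fell, with a median log2 fold change of 0.055. CERT1, which carries ceramide to the Golgi, averaged 34.8 ± 0.662 CPM in shTRIM21 and 29.9 ± 0.883 CPM in shControl (SD, n = 3 each; log2 fold change 0.22, edgeR adjusted p = 0.0253). SGMS2, a sphingomyelin synthase of the plasma membrane, had 27.1 ± 0.452 CPM in shTRIM21 and 34.2 ± 0.470 CPM in shControl (SD, n = 3 each; log2 fold change -0.34, edgeR adjusted p = 0.00182). SMPDL3B, a membrane-anchored phosphodiesterase of the sphingomyelinase family, rose by 0.25 (SE 0.080, edgeR adjusted p = 0.0382). The CERT1 call was lost without shTRIM21 replicate 1 (0.20) or 2 (0.22) or without shControl replicate 2 (0.20) or 3 (0.20). SMPDL3B lost its call when any single library was left out (0.21 to 0.29), with the replicate block (0.25) and with DESeq2 (0.25). The most abundant uncalled gene, SMPD4, had 147.3 CPM in shTRIM21 and 154.7 CPM in shControl.

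In glycosphingolipid synthesis 4 of 11 tested genes rose and 0 fell, with a median of 0.17, in a list that leaves out UGCG, called lower and counted among the 10; of the 11, 0 were lower at an unadjusted p under 0.05 and 0 by DESeq2. ST3GAL5, which makes the ganglioside GM3 from lactosylceramide, averaged 7.04 ± 0.376 CPM in shTRIM21 and 4.93 ± 0.385 CPM in shControl (SD, n = 3 each; log2 fold change 0.51, edgeR adjusted p = 0.00922). UGT8, which makes galactosylceramide, rose by 0.30 (SE 0.068, edgeR adjusted p = 0.00547). PLEKHA8, which transports glucosylceramide, rose by 0.28 (SE 0.085, edgeR adjusted p = 0.0298) and the lactosylceramide synthase gene B4GALT5 by 0.17 (SE 0.053, edgeR adjusted p = 0.0354). Both lost their calls without shTRIM21 replicate 2 (0.28 and 0.18) or 3 (0.23 and 0.12) and without shControl replicate 1 (0.30 and 0.16) or 3 (0.22 and 0.17), and B4GALT5 also without shControl replicate 2 (0.16). B4GALNT1, the most abundant uncalled gene, had 40.2 CPM in shTRIM21 and 43.4 CPM in shControl. In glycosphingolipid breakdown, a list not limited to lysosomal enzymes, 0 of 11 tested genes rose and 1 fell by edgeR. Of the 11, 1, NEU3, was higher at an unadjusted p under 0.05 by edgeR and 0 were called higher by DESeq2. The gene that fell was NEU1, a sialidase (log2 fold change -0.29, SE 0.069; adjusted p = 0.00813 by edgeR). The saposin precursor gene PSAP stood at 380 ± 6.92 CPM in shTRIM21 and 364 ± 23.7 CPM in shControl (SD, n = 3 each) and was not called.

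Among ceramidases and genes of sphingosine 1-phosphate, the signalling lipid made from ceramide's base, 3 of 13 tested rose and 1 fell, with a median of 0.15. SGPP2, a phosphatase that returns sphingosine 1-phosphate to sphingosine, had 4.10, 4.26 and 3.49 CPM in shTRIM21 and 2.25, 1.74 and 1.66 CPM in shControl. This was the largest rise of the tested genes in these lists outside the 10, at 2.10-fold (log2 fold change 1.07, SE 0.19; adjusted p = 0.00113 by edgeR). ALDH3A2, which oxidises the aldehyde left when sphingosine 1-phosphate is split, averaged 73.7 ± 3.518 CPM in shTRIM21 and 56.2 ± 4.45 CPM in shControl (SD, n = 3 each; log2 fold change 0.39, edgeR adjusted p = 0.000834). The receptor gene S1PR5 rose by 0.47 (SE 0.10, edgeR adjusted p = 0.0052). SGPL1, the lyase that splits sphingosine 1-phosphate, fell to 79.9 ± 2.39 CPM in shTRIM21, against 92.7 ± 3.17 CPM in shControl (SD, n = 3 each; log2 fold change -0.22, edgeR adjusted p = 0.0115), and its value was -0.0016 with library sizes alone. The export pump gene ABCC1, the most abundant uncalled gene, had 117 CPM in shTRIM21 and 120 CPM in shControl. SGPP1, GALC and SHMT1 were listed at 0 in all libraries; how reads were counted is not given, so a listed 0 is not read as absence of the transcript.

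Of the genes that supply serine and palmitoyl-CoA, 4 of 11 tested fell and 1 rose, with a median of -0.13. All 4 that fell make or use serine: PSAT1 (log2 fold change -0.71, SE 0.062), PHGDH (-0.45, SE 0.054), SHMT2 (-0.30, SE 0.051) and PSPH (-0.24, SE 0.064). In the same order edgeR gave adjusted p-values of 1.89e-06, 4.19e-05, 0.000979 and 0.0152. With library sizes alone PSAT1 was still called (-0.50), while PHGDH (-0.24), SHMT2 (-0.091) and PSPH (-0.029) were not, and PSPH was also not called without shControl replicate 3 (-0.22). The acyl-CoA synthetase gene ACSL5 rose to 84.7 ± 1.93 CPM in shTRIM21, against 66.4 ± 2.98 CPM in shControl (SD, n = 3 each; log2 fold change 0.35, edgeR adjusted p = 0.000523). The fatty acid synthase gene FASN, at 1314 ± 34.6 CPM in shTRIM21 and 1346 ± 118 CPM in shControl (SD, n = 3 each), was not called.

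**Figure D5:**
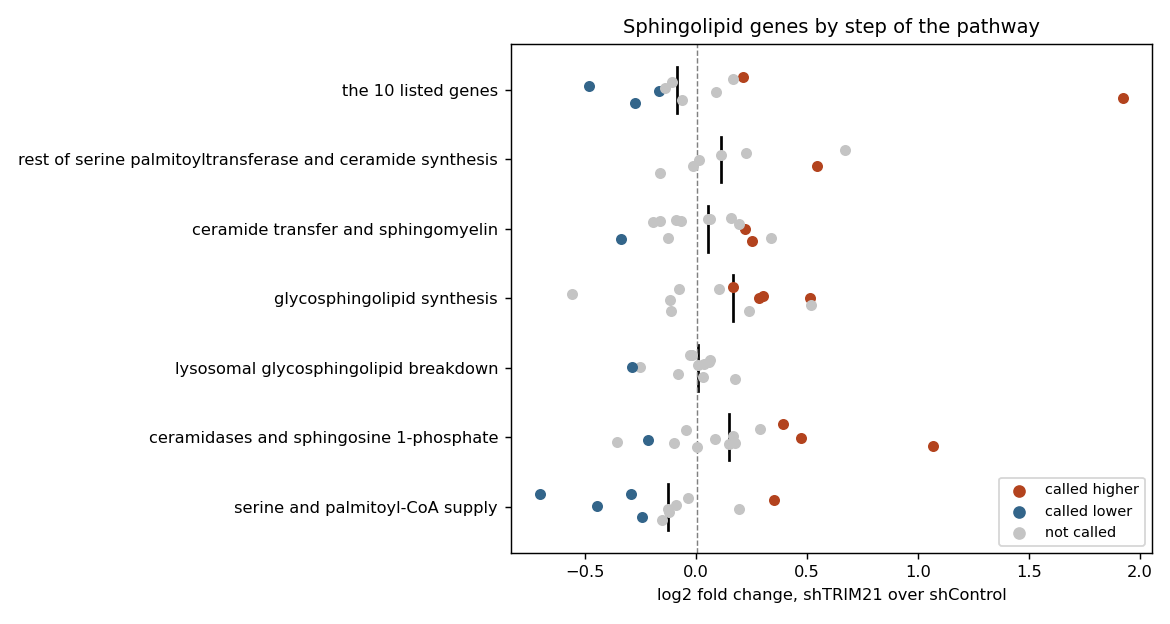
Log2 fold change of shTRIM21 over shControl for each tested gene of the 7 lists, coloured red where called higher, blue where called lower and grey where not called; black bars are list medians and the dashed line is the median of all tested genes, 0.0054. SPTSSB at 1.93 and SGPP2 at 1.07 lie farthest to the right and PSAT1 at -0.71 farthest to the left. The list labelled lysosomal is not limited to lysosomal enzymes.

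Over the 6 libraries, the genes whose pattern was most like that of SPTSSB were ARRDC4, IGSF9 and CEMIP, out of 11243 tested genes with at least 5 CPM in the higher group. Likeness was the root mean square difference between centred log2 CPM values, which was 0.13 for ARRDC4, 0.23 for IGSF9 and 0.24 for CEMIP. ARRDC4, an arrestin-domain gene, had 9.91, 8.81 and 9.93 CPM in shTRIM21 and 3.07, 3.29 and 2.24 CPM in shControl. IGSF9 averaged 14.01 ± 0.970 CPM in shTRIM21 and 4.50 ± 0.151 CPM in shControl, and CEMIP 26.6 ± 2.42 CPM in shTRIM21 and 7.14 ± 0.873 CPM in shControl (SD, n = 3 each). This measure mostly ranks genes by a like difference between the groups.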

How the data were processed

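Ribosomal RNA-depleted total RNA of 6 libraries was analysed. What the authors deposited for each library is a table of raw counts over 28278 gene symbols. The submitters' processing notes name TopHat2, edgeR 3.38.1, limma 3.52.2 and hg38, but not what each was used for. How reads were counted, on which annotation and whether by strand is not given in the sources used here, so overlapping genes may share reads. The source field of the labels says mouse tissue; organism, cell line and gene symbols are human.

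Groups and replicate numbers came from the titles. Counts were filtered with filterByExpr (minimum count 10, minimum total 15), scaled with TMM and compared with the quasi-likelihood F test of edgeR 4.0.16 in R 4.3.3 (limma 3.58.1), with Benjamini-Hochberg adjustment over 15131 genes and a threshold of 0.05. A standard error is the size of the log2 fold change over the root of its F statistic. DESeq2 1.42.0 was an alternative. The test was checked on simulated counts. Exon lengths came from GENCODE 29 and positions and promoters from RefSeq (GRCh38.p14).

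The 10 genes and the 6 other lists were chosen with earlier results of these data known. Named were the 10 genes, TRIM21, the 9 other genes of the same steps, up to 4 called genes per direction and the most abundant uncalled gene of each further list, and the 3 genes most like SPTSSB; NEU3, SGPP1, GALC and SHMT1 were named after their values were seen.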

Additional observations from a re-analysis of the deposited data

How the results depend on the processing

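With TMM, 3146 genes, 5 of the 10 and 18 other listed genes were called. With library sizes alone these were 1969, 1 and 11. TRIM21 was then at -0.34 and not called (edgeR adjusted p = 0.197, of a range from 0.000399 to 0.197 over its alternatives). The log2 fold change of CERS2, -0.17 with TMM, was 0.047 with library sizes alone. That scaling shifts the median of all genes to 0.22. Such unscaled sizes include the ribosomal RNA rows, at 31.0% and 36.9% of counts in shControl replicates 1 and 3 and 14.7% to 23.5% in the other libraries. Leaving out 1 replicate gave 1844 to 2592 genes, 3 to 5 of the 10, 12 to 18 other genes and TRIM21 values from -0.65 to -0.47; the fewest genes were without shTRIM21 replicate 2. Without shControl replicates 1 and 3, chosen after the data were seen, the counts were 1958, 1 and 10, with 1 control library assumed to vary like the rest. By mean transcript length in place of the union of exons, with the counts unchanged, 2 of the 10 kept their rank in level in shControl. With the replicate block 2905 genes, 4 of the 10 and 17 others were called. Same-numbered libraries deviated from their group means with correlations of -0.013, 0.0057 and -0.080. With 3 libraries centred per group, these values cannot tell whether the numbers pair the libraries. Of 322 values of the 23 called genes over the alternatives, 262 stayed called in the same direction, 59 were not called and 1 had the opposite sign; outside the 10, 6 genes were called under every alternative: ST3GAL5, SGPP2, S1PR5, ALDH3A2, ACSL5 and PSAT1. SPTLC3 and CERS3, with at most 2 counts in any library, were under the filter and could not be compared at this depth.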
